A study of Mus musculus with 6 samples.

Results

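Many mouse genes begin their transcripts at more than 1 place, and the values here are those of alternative transcript starts in DN3 thymocytes of Hspa9 cKO and WT mice. A start is a first exon of an assembled transcript, and its value is the FPKM (fragments scaled by exon length and library size) that the authors' software gave to the transcripts beginning with that exon. Starts were kept where their gene had at least 2 of them, each with a mean of at least 2 FPKM over the 6 libraries. This left 4103 starts of 1725 genes, out of 27390 starts listed in any library and 26726 listed under a reference gene. They made up 15.4% of the starts listed under a gene and 42.4% of their FPKM. They were selected on the level averaged over both groups, without a test of the difference between them. A start high in 1 group alone can pass through that group, and its level difference is then part of the choice. Just inside the threshold stood a start of Tcn2, at a mean of 2.00069 FPKM, and one of Tbp, at 2.00144 FPKM, and just outside it one of Cdan1, at 1.9987 FPKM, and one of Unk, at 1.99358 FPKM.

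The study asks what GRP75, the mitochondrial HSP70 chaperone encoded by Hspa9, does in early thymocyte development. The Hspa9 cKO group held 3 libraries of DN3 thymocytes from conditional knockout mice and the WT group 3 libraries from wild type mice, all of 5-week-old, untreated mice. Cells were sorted as negative for lineage markers, CD4, CD8 and CD44 and positive for CD25. Neither the driver of the deletion nor the animal behind each library is stated, so the tests rest on the scatter among the libraries, part of which can be technical. Transcripts with exons 2 to 4 of Hspa9 had, in Hspa9 cKO, values of 24.9, 16.8 and 25.2 FPKM, against 105.3, 108.8 and 104.6 FPKM in WT replicates 1 to 3. The first exon of Hspa9 lies outside those exons and checks nothing, and Hspa9 is not among the genes kept, since its main start held 99.9% to 100% of its start FPKM in every library. All 15 markers fixed for DN3 thymocytes were listed, with summed FPKM of 3070 to 3660 in Hspa9 cKO and 2510 to 2850 in WT. Cd3g was the largest part of this sum in every library, and the markers did not all differ in the same direction. Tcf7 was lower in every Hspa9 cKO library than in any WT library. Rag1, Hes1 and Lck overlapped between the groups, and the remaining markers were higher in Hspa9 cKO without overlap. The 4 genes that the sort should keep low summed to 3.21 to 5.15 FPKM in Hspa9 cKO and to 7.62 to 8.85 FPKM in WT. Of 6 markers of natural killer and innate lymphoid cells, Ncr1, Klrb1c, Klrd1 and Gzmb were not listed and the others summed to 57.5 to 61.6 FPKM in Hspa9 cKO and to 29.6 to 33.0 FPKM in WT, nearly all of it Nkg7. Cd79b, the single listed marker of 6 for B cells, was at 15.3 to 18.3 FPKM in Hspa9 cKO and 9.75 to 12.6 FPKM in WT. Epcam, the single listed marker of 5 for thymic epithelium, was at 36.7 to 43.0 FPKM in Hspa9 cKO and 27.2 to 29.1 FPKM in WT. The part of these markers in the results was not tested.

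RNA polymerase II begins a transcript at a core promoter, and a gene with several promoters can use them in different cell types or at different stages. The chosen start sets the 5′ untranslated region and sometimes the first codons, so it can change how a messenger is translated or which N-terminus its protein has. In T cells, Lck, Runx3, Tcf7 and Lef1 are textbook cases: their distal and proximal starts differ in use between thymocytes and mature T cells, or give proteins with and without an N-terminal domain. Starts read from assembled RNA sequencing are less exact than those from methods that capture the 5′ cap, because the first exon is inferred and reads are divided among overlapping isoforms.

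Promoter windows of 3 genes are shown because their starts have separate entries and their shares are described further on. Each window runs from 250 bases before to 50 bases after a RefSeq start on build GRCm38.p6, and is written 5′ to 3′ on the strand of the gene. Capitals mark matches, on either strand, to 10 motifs. They are the TATA box, written TATAAA, the CRE, written TGACGTCA, and a response element of C/EBP and ATF factors, written TGATGNAA. The interferon-stimulated response element was searched as GAAANNGAA, the E-box of MYC and USF as CACGTG, and the E2F motif as TTTCGCGC. The box bound by NF-Y is CCAAT in these letters. The GC box of SP1 was searched as GGGCGG, the ETS motif as CCGGAAG and the RUNX motif as TGTGGT. The upstream and downstream windows of Elf4 are chrX:48463083-48463382 and chrX:48454270-48454569 on the minus strand. Those of Jdp2 are chr12:85598855-85599154 and chr12:85599166-85599465 on the plus strand. Those of Lef1 are chr3:131110073-131110372 and chr3:131112541-131112840 on the plus strand.
Elf4 upstream: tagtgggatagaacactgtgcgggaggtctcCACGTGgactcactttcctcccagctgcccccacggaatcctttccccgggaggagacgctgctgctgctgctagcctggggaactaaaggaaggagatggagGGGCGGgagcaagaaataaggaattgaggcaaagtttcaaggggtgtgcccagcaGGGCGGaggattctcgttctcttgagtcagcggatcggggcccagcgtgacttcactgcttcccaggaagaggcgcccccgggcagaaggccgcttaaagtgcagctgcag
Elf4 downstream: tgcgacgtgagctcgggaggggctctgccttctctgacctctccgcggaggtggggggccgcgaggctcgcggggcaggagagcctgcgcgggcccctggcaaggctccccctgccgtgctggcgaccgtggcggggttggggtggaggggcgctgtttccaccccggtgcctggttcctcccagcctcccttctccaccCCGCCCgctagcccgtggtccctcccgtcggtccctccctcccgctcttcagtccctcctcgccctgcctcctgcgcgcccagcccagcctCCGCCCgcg
Jdp2 upstream: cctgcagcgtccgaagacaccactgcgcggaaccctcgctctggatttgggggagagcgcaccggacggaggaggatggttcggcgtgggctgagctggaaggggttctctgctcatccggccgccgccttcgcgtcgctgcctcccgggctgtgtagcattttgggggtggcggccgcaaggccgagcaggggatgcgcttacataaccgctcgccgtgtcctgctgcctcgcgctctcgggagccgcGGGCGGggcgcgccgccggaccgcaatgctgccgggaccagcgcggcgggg
Jdp2 downstream: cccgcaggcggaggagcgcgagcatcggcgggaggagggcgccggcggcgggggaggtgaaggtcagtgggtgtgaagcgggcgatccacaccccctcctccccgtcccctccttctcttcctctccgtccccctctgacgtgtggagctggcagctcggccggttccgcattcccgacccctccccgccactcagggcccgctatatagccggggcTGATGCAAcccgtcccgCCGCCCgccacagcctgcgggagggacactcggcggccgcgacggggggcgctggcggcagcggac
Lef1 upstream: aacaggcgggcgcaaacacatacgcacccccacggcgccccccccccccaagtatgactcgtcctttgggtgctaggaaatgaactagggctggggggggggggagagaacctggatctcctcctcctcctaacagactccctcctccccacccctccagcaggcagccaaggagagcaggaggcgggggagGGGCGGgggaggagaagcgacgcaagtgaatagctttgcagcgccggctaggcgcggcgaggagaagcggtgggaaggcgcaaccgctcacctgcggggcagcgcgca
Lef1 downstream: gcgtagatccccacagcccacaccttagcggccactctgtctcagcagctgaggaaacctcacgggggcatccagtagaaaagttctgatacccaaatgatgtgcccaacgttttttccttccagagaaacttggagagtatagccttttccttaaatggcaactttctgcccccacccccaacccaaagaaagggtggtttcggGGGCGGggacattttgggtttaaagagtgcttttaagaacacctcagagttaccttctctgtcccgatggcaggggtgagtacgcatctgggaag
The start in the tables lay 0 bases from the RefSeq start for the upstream window of Elf4 and the downstream window of Jdp2, 6 bases for the downstream window of Lef1, and 78 to 150 bases for the others. The upstream window of Elf4 held an E-box and 2 GC boxes, where the downstream one held 2 GC boxes and no E-box. The downstream window of Jdp2 held a match to TGATGNAA and a GC box, where the upstream one held a GC box alone. Both windows of Lef1 held a single GC box. No match overlapped another. Over all 32851 RefSeq promoters of the same length, the E-box was found in 7.15%, TGATGNAA in 3.97% and the GC box in 35.7%. A match says that these letters are present, not that a factor binds there.

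Of the 4103 starts, 1652 had a RefSeq start within 50 bases on the same strand, at 1364 distinct promoters. The GC box of SP1 was in 66.4% of these promoters, against 35.7% of all RefSeq promoters, and the ETS motif in 22.9%, against 8.86%. The NF-Y box was in 38.8%, against 37.4% of all, and the TATA box in 5.35%, against 13.6%. The E-box was in 11.4%, against 7.15% of all, the CRE in 3.23%, against 1.79%, and the E2F motif in 0.953%, against 0.323%. Less frequent than over all promoters were the RUNX motif, at 13.7% against 16.8%, the interferon-stimulated response element, at 7.11% against 8.56%, and TGATGNAA, at 1.47% against 3.97%. These are promoters of genes expressed in the sorted cells, set against promoters of all genes.

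Most of the genes had few starts. There were 1254 genes with 2 starts, 345 with 3 and 126 with 4 or more, up to 13 listed under Trbc2, the constant region of the T cell receptor beta chain. The median start stood at 7.28 FPKM and the highest, of the elongation factor gene Eef1a1, at 4770 FPKM. Of the 4103 starts, 3437 were at 2 FPKM or more in the means of both groups, 361 in the Hspa9 cKO mean alone and 305 in the WT mean alone. A start was listed in all 6 libraries in 3628 cases and in a single library in 74. No WT library listed 54 of them and no Hspa9 cKO library 53, and an unlisted start, set to 0, can be a failed estimate.

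By GENCODE M21, which is also on mm10, 1258 genes (72.9%) with 2870 starts had every start at the first exon of a single annotated gene. In 55 of these the tables name another gene: the starts of Eif4a2 are listed under the small RNA gene Gm24616 within it, and those of Lck under the microRNA gene Mir8119. In 208 genes (12.1%) the starts belonged to several annotated genes, and in 21 of these some starts lay on the opposite strand, as at Notch1. In the other 259 genes (15%) at least 1 start lay at an exon edge that is no annotated first exon or that several genes share. A share within a joined gene compares neighbouring genes, not starts of 1 gene.

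In the 1258 genes with starts of a single annotated gene, the pair of highest starts lay a median of 1239 bases apart. In 140 genes both had the same 5′ end and differed only in where the first exon ends, so they are not separate promoters. The distance was up to 100 bases in 171 genes, over 100 and up to 1000 bases in 296, over 1000 and up to 10000 bases in 311, and over 10000 bases in 340. The longest was 247269 bases, in Tcf4, an E protein gene. The higher start was the upstream one in 793 of 1118 genes with separate 5′ ends (70.9%), and it began a principal isoform in 1019 of 1258 (81.0%). The lower start began a principal isoform in 477, so both starts of a gene can carry that label. Both starts began an annotated protein-coding transcript in 807 genes, 1 of them did in 435, and neither did in 16.

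The comparison asked whether Hspa9 cKO thymocytes divide a gene's transcripts among its starts differently from WT thymocytes. The share of a start is its percentage of the summed start FPKM of its gene in a library. Its SD within a group had a median of 7.35 percentage points in Hspa9 cKO and of 7.81 points in WT, and the median difference between the group means, without sign, was 6.13 points. The difference was 10 points or more for 1418 starts (34.6%), and the groups did not overlap in 368 of these (26.0%). The 3 Hspa9 cKO libraries lay apart from the 3 WT libraries for 578 of the 4103 starts (14.1%), 296 of them higher and 282 lower in Hspa9 cKO, beside 13.7% of all 6518 starts that could be tested. The share of starts with separate groups is thus near that over all starts.

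Of the 6518 starts tested, each with a mean of at least 1 FPKM for itself and for the other starts of its gene, 3 had an adjusted p under 0.05 (limma on the log2 ratio of the start to the rest of its gene), which is 0.046%. All 3 were among the 4103, in Rcsd1 and Eif4a2. Without adjustment, p was under 0.05 for 248 of the 4103 starts (6.04%) and for 417 of all starts tested (6.4%). Each of the 3 calls involved a start under 2 FPKM in the mean of 1 group, which passed the threshold only through the group where it was high, and none of the 3060 starts in genes with 2 or more starts at 2 FPKM in each group was called, with 110 under 0.05 before adjustment. An adjusted p under 0.1 was reached by 22 starts in 15 genes.

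**Figure D1:**
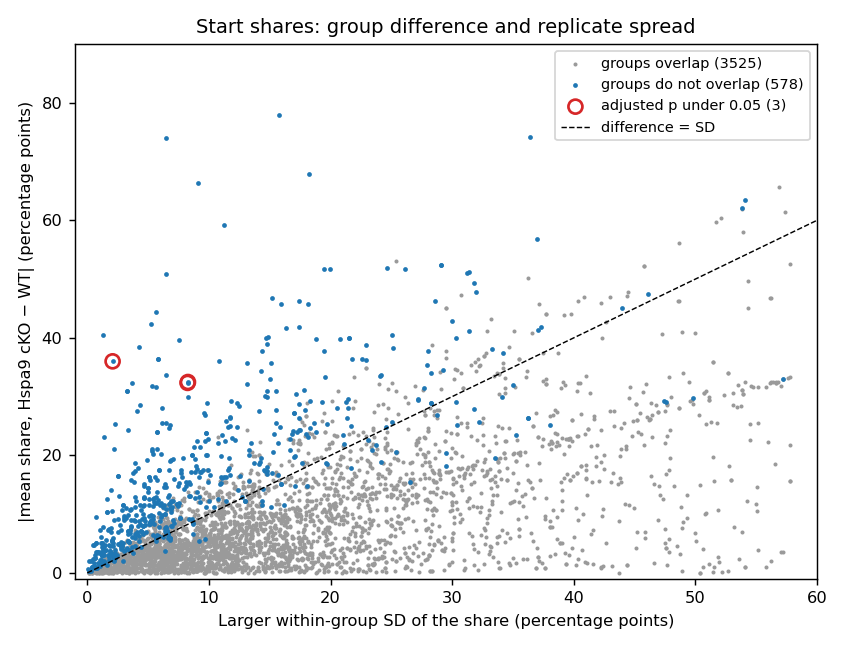
Difference between the mean shares of Hspa9 cKO and WT without sign (y axis, percentage points) against the larger of both within-group SDs (x axis, percentage points) for the 4103 starts. Blue points are the 578 starts whose groups did not overlap, grey points the rest, red rings the 3 starts with an adjusted p under 0.05 (both Rcsd1 starts nearly coincide), and the dashed line marks a difference equal to the SD.

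Which start led a gene was often not stable among libraries of 1 group. The highest start was the same in all 6 libraries in 946 of 1725 genes (54.8%), and it differed within at least 1 group in 759 (44.0%). It was shared by the 3 Hspa9 cKO libraries in 1177 genes (68.2%) and by the 3 WT libraries in 1206 (69.9%). In 20 genes (1.16%) it was the same within each group and different between groups. In 14 of these all starts belonged to 1 annotated gene, among them Arpp19, Dock9, Elf4, Fam49b, Gabpb2, Gtpbp2, Hmg20b, Itsn2, Izumo4, Jdp2, Prrc2b, Rabgap1l and Trim46. By distance between the highest pair, groups of shares were apart for 8.41% of starts where the pair had the same 5′ end and 10.8% up to 100 bases. The percentage was 12.3% over 100 to 1000 bases, 14.7% over 1000 to 10000 bases and 14.8% beyond. A trend with distance was not tested, and shares within a gene depend on each other. No direction along the gene stood out, since the upstream start was higher in Hspa9 cKO in 80 genes and lower in 76 of the 156 genes in which its groups did not overlap.

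**Figure D2:**
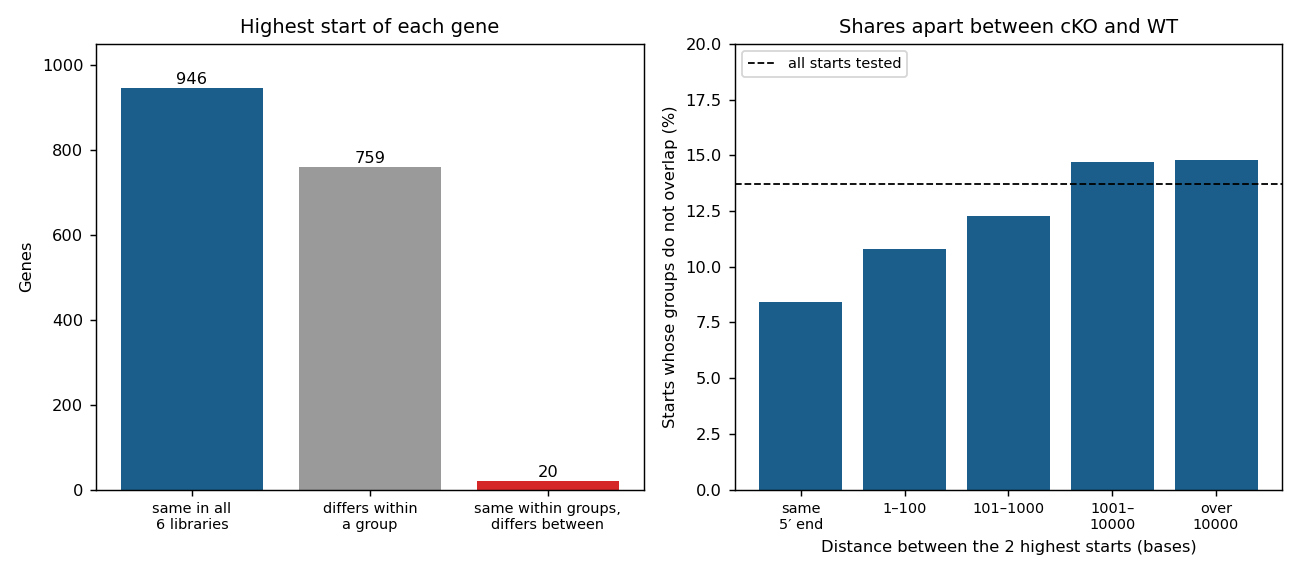
Left, number of genes (y axis) by whether the highest start was the same in all 6 libraries (946), differed within a group (759), or was the same within groups and different between them (20). Right, percentage of starts whose groups of shares did not overlap (y axis), by the distance in bases between the highest pair of starts of the gene (x axis), with 13.7% over all starts tested as a dashed line.

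Rcsd1, which encodes a protein that binds the actin capping protein CapZ, had an upstream start that was listed in WT libraries alone. A start unlisted in a library, and so set to 0, can be a failed estimate. Its annotated first exon (ENSMUSG00000040723; mm10 chromosome 1, 165707891 to 165708086, minus strand) was at 116.2, 107.2 and 112.5 FPKM in Hspa9 cKO, against 57.4, 37.9 and 79.4 FPKM in WT. Another start, 1671 bases upstream (165709254 to 165709757), which matches no annotated first exon, was listed in no Hspa9 cKO library and at 20.7, 27.3 and 32.5 FPKM in WT. The share of the annotated start rose to 99.8% ± 0.108 in Hspa9 cKO, against 67.5% ± 8.24 in WT (SD, n = 3 each; limma, adjusted p = 0.0281, and the same for the upstream start). The exact two-sided permutation test of the shares gave p = 0.1, as low as groups of 3 can go, here and for every start below whose groups do not overlap. The summed start level of Rcsd1 was not called (log2 difference 0.43, SE 0.19, adjusted p = 0.189). Both calls were lost without any 1 of the 6 libraries (limma, adjusted p from 0.0564 to 0.161 for the upstream start), and on shares in percent in place of log ratios (0.192). The level of the upstream start, which is a member only through WT, had an adjusted p of 0.00107 (0.00608 to 0.0143 with each library left out).

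Eif4a2, an RNA helicase that takes part in the binding of messengers by the ribosome, had a called share at an inner start and far smaller differences at its main one. The principal first exon (ENSMUSG00000022884; mm10 chromosome 16, 23107444 to 23107820, plus strand) was at 72.6, 73.3 and 74.8 FPKM in Hspa9 cKO, against 83.0, 71.8 and 85.0 FPKM in WT. A start 2532 bases downstream (23109976 to 23110153), the first exon of a retained-intron transcript, was at 44.4, 48.0 and 40.8 FPKM in Hspa9 cKO and at 0.450, 0.318 and 0.677 FPKM in WT. Another, 3228 bases downstream (23110672 to 23110723) and also of retained-intron transcripts, was at 0.894, 3.29 and 0.102 FPKM in Hspa9 cKO and at 58.5, 56.1 and 64.7 FPKM in WT. The share of the principal start was 60.3% ± 2.15 in Hspa9 cKO and 55.7% ± 1.65 in WT, with separate groups and no call (adjusted p = 0.894). The groups lay far apart at both inner starts, in opposite directions, while the summed level was not called (log2 difference -0.23, SE 0.08, adjusted p = 0.108). The share of the first inner start rose to 36.3% ± 2.08 in Hspa9 cKO, against 0.331% ± 0.0996 in WT (log2 ratio difference 5.81, SE 0.37; limma, adjusted p = 0.0267). The other inner start held 1.15% ± 1.31 in Hspa9 cKO and 41.7% ± 1.04 in WT, with an adjusted p of 0.0583. The call of the first held without WT replicate 3 (adjusted p = 0.0419) and was lost without any other library (up to 0.161) and on shares in percent (0.0749). The level difference was 4.94 on the log2 scale at the first inner start (SE 0.13; limma, adjusted p = 0.000687) and -4.87 at the other (SE 0.49, adjusted p = 0.00922), each a member only through the group where it was high.

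Fewer than 10 genes being called, the 15 genes with the largest difference in share were described too, among those with separate groups and starts of 1 annotated gene. Their differences reached 74.0 percentage points, and none of these shares passed the test. Because they were chosen for that difference, their shares and levels, and the p of either, are given as a description. A start at or near 0 in 1 group is a member only through the other group, so its level had to differ.

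Elf4, an ETS transcription factor of lymphocytes that restrains the proliferation of T cells, had the largest difference. Its upstream start (ENSMUSG00000031103, mm10 chromosome X, 48463073 to 48463132, minus strand) was at 12.0, 19.4 and 18.8 FPKM in Hspa9 cKO. It was unlisted, and so set to 0, in all 3 WT libraries. Its downstream start, 8963 bases away (48453872 to 48454169), was at 5.44, 4.30 and 6.62 FPKM in Hspa9 cKO, against 15.7, 12.6 and 12.4 FPKM in WT. The groups did not overlap at either start, and the windows shown above as Elf4 upstream and Elf4 downstream are those of the nearest RefSeq starts, 0 bases from the upstream start and 150 bases from the downstream one, which lies outside its window. Both are first exons of protein-coding transcripts whose start codon lies in exon 2. The upstream start held 66.4% ± 9.09 of the gene's start FPKM in Hspa9 cKO and none in WT (limma, adjusted p = 0.0507), and the downstream start 22.2% ± 6.07 in Hspa9 cKO and 96.3% ± 6.47 in WT (adjusted p = 0.0583). The adjusted p of the upstream level was 0.00146 (limma, and 0.00802 to 0.0168 with each library left out). That start is a member only through Hspa9 cKO, so these values restate the choice. The downstream level differed by -1.18 on the log2 scale (SE 0.17, adjusted p = 0.0231), a call held without Hspa9 cKO replicate 3 and lost without any other library (up to 0.0845) and without the filter on low values. The summed level differed by 0.78 (SE 0.17, adjusted p = 0.0322), a call held without WT replicate 1 and lost without any other library (up to 0.0978).

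Wnk1 encodes a kinase that controls ion cotransporters and lymphocyte adhesion. Its principal start (mm10 chromosome 6, 120036874 to 120038672, minus strand) was at 22.9, 27.8 and 25.8 FPKM in Hspa9 cKO, against 9.73, 14.8 and 14.5 FPKM in WT. An inner start 48505 bases downstream (119990092 to 119990167) was at 0.00734, 0.00528 and 0.00299 FPKM in Hspa9 cKO and at 15.5, 13.8 and 6.15 FPKM in WT. The inner start held 0.0207% ± 0.0101 in Hspa9 cKO and 45.8% ± 15.9 in WT (limma, adjusted p = 0.0599). Its level differed by -3.58 on the log2 scale (SE 0.35, limma, adjusted p = 0.00826, and 0.00809 to 0.0469 with each library left out). This inner start is a member only through WT, so these level values restate the choice. The principal start had a level difference of 0.93 (SE 0.18, adjusted p = 0.0447), which was lost without any 1 library (0.0566 to 0.141) and without the filter. The summed level of Wnk1 was not called (0.03, SE 0.13, adjusted p = 0.899).

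Arpp19, an inhibitor of the phosphatase PP2A at entry into mitosis, and Jdp2, a repressor of the AP-1 family, each had a start that was near 0 in 1 group. The upstream start of Arpp19 (mm10 chromosome 9, 75037614 to 75037719, plus strand) was at 10.1, 9.59 and 8.59 FPKM in Hspa9 cKO and at 3.89, 0.744 and 4.82 FPKM in WT. Its neighbour 104 bases downstream (75037718 to 75037961) was at 0 (unlisted), 0.401 and 0.104 FPKM in Hspa9 cKO, against 7.51, 9.37 and 5.75 FPKM in WT. The start at 75037718, whose groups lay apart, differed in level by -2.86 on the log2 scale (SE 0.24, limma, adjusted p = 0.00546, and 0.0165 to 0.0371 with each library left out). It is a member only through WT, so these level values restate the choice. Its share was 1.63% ± 2.08 in Hspa9 cKO and 69.6% ± 18.2 in WT.

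The upstream start of Jdp2 (mm10 chromosome 12, 85599027 to 85599227, plus strand) was at 1.84, 2.50 and 0.860 FPKM in Hspa9 cKO and at 3.03, 2.39 and 1.83 FPKM in WT, and these groups overlapped. The start 389 bases downstream (85599416 to 85599614) was at 5.76, 4.17 and 4.57 FPKM in Hspa9 cKO, against 0.240, 0.530 and 0.598 FPKM in WT. Its level differed by 2.001 (SE 0.20, limma, adjusted p = 0.00817, and 0.0297 to 0.0471 with each library left out). This downstream start is a member only through Hspa9 cKO, so these level values restate the choice. Its share was 69.7% ± 11.2 in Hspa9 cKO and 10.4% ± 4.36 in WT (limma, adjusted p = 0.161). Translation of both Jdp2 transcripts begins in exon 2. In WT replicate 3, starts of Jdp2 under 2 FPKM held most of the rest, since the upstream start made up 32.7% there.

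**Figure D3:**
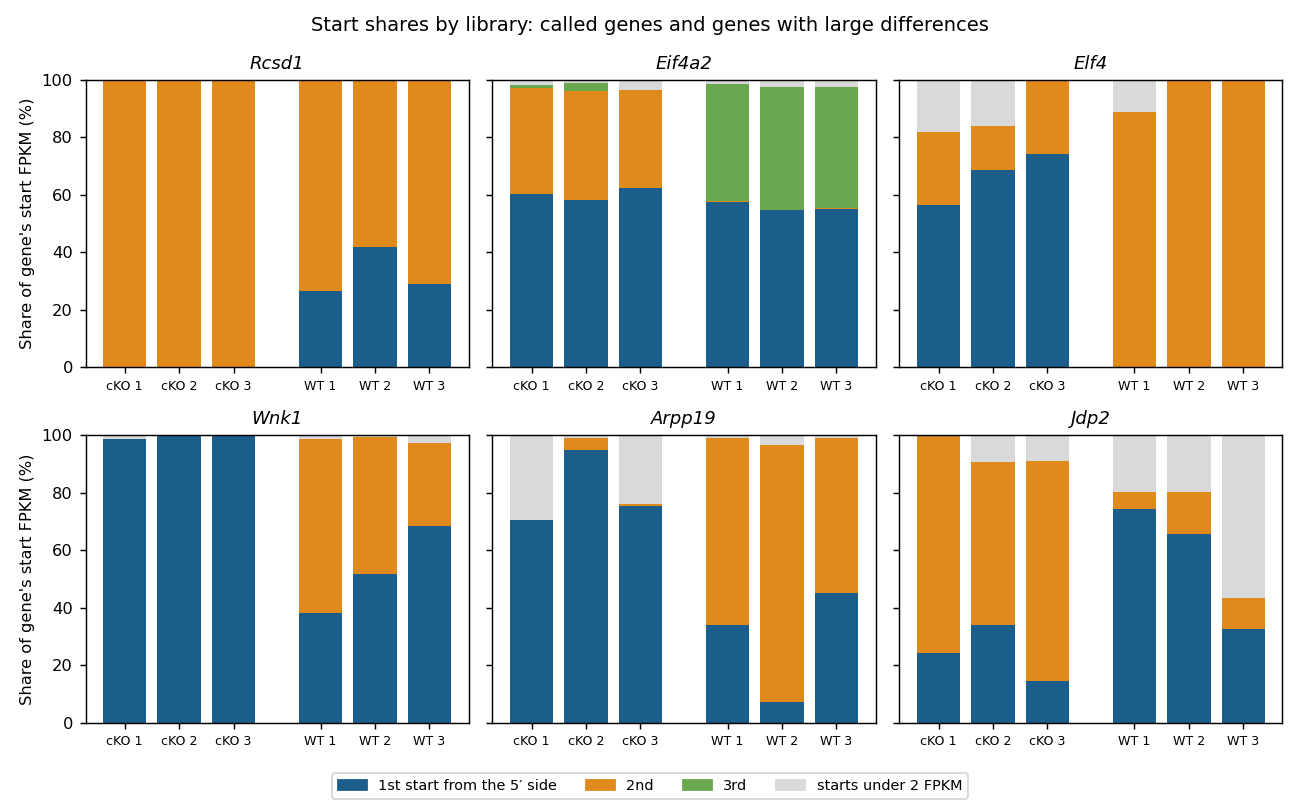
Share of each start in its gene's start FPKM (y axis, percent) in each library (x axis, Hspa9 cKO replicates 1 to 3, then WT replicates 1 to 3) for Rcsd1, Eif4a2, Elf4, Wnk1, Arpp19 and Jdp2. Colours run from the 5′-most start (blue) through the next (orange) to the third (green), and grey is the sum of starts under 2 FPKM. The upstream start of Elf4 is at 56.3% to 74.0% in Hspa9 cKO and unlisted in WT.

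Most of the other genes had separate groups but a wide spread inside at least 1 of them. At Lcp1, the actin bundling protein of leukocytes, the principal start was at 0.142, 80.1 and 104 FPKM in Hspa9 cKO and at 0.156, 0 and 0.141 FPKM in WT, while a start 58 bases upstream of it stood at 98.01 FPKM in WT replicate 2 and was unlisted elsewhere. The share of the principal start was 2.64%, 95.4% and 97.1% in Hspa9 cKO, against 2.03%, 0% and 2.54% in WT. These shares were apart only narrowly, and the FPKM values of that start overlapped. At Oasl2, an interferon-induced gene, 3 starts within 248 bases took turns as the highest. The start ending at 114897151 held 97.1%, 28.3% and 15.3% in Hspa9 cKO, against 0%, 5.59% and 0% in WT. The start ending at 114897862 held 2.45%, 68.4% and 6.5% in Hspa9 cKO, against 98.3%, 80.5% and 68.7% in WT. What passed the test at Oasl2 with every library left out was the summed level, at 17.4 ± 3.05 FPKM in Hspa9 cKO and 3.03 ± 0.389 FPKM in WT (SD, n = 3 each; log2 difference 2.18, SE 0.15; limma, adjusted p = 0.00142).

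Asxl1, a partner of the histone deubiquitinase BAP1, had its principal start at 76.1% ± 31.2 in Hspa9 cKO and 25.1% ± 15.1 in WT, most of the remainder lying at a retained-intron transcript 47031 bases downstream. Phf14, a PHD finger gene, had 32.5% ± 5.87 at its principal start in Hspa9 cKO and 75.4% ± 30.0 in WT. The level of that start was 8.31 ± 1.19 FPKM in Hspa9 cKO and 9.31 ± 2.21 FPKM in WT, and was not called. Its other start, 80939 bases downstream, was at 17.5, 19.0 and 14.6 FPKM in Hspa9 cKO and at 11.9, 0 and 0 FPKM in WT. Itsn2, a scaffold of endocytosis, had 52.2% ± 9.70 at its principal start in Hspa9 cKO and 29.8% ± 3.59 in WT. The adjusted p of these 3 shares lay between 0.727 and 0.739.

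In Ggnbp2 the inner start (mm10 chromosome 11, 84869877 to 84870202, minus strand) was at 10.04, 8.56 and 7.67 FPKM in Hspa9 cKO, against 0.0680, 0.806 and 1.73 FPKM in WT. Its share was 50.5% ± 5.64 in Hspa9 cKO and 6.11% ± 5.37 in WT (limma, adjusted p = 0.195). It is a member only through Hspa9 cKO. Its level call (limma, adjusted p = 0.0241) was lost on leaving out WT replicate 2 or a library of Hspa9 cKO (up to 0.0913). That call was also lost with a pseudocount of 0.1 FPKM and without the filter. Pced1a had its inner start at 71.4% ± 29.1 in Hspa9 cKO and 19.0% ± 11.2 in WT, and Izumo4 at 57.1% ± 18.1 in Hspa9 cKO and 11.4% ± 4.14 in WT. Mtg1, a GTPase of mitochondrial ribosome assembly, had 10.8% ± 2.46 at its principal start in Hspa9 cKO and 52.1% ± 37.0 in WT. None of these shares passed the test.

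Of the 11 lymphocyte genes named for their starts, 7 were among the genes kept: Lck, Runx3, Tcf7, Lef1, Ikzf1, Notch1 and Tcf12. No share of theirs was called. Lck, the kinase that begins T cell receptor signalling, has an upstream start (mm10 chromosome 4, 129573515 to 129573641, minus strand) and one 15269 bases downstream (129558288 to 129558372), each of a protein-coding transcript. The downstream one was at 325, 82.8 and 8.64 FPKM in Hspa9 cKO and at 266, 231 and 223 FPKM in WT. The upstream one was at 220.3, 105 and 512 FPKM in Hspa9 cKO and at 267, 212 and 340.0 FPKM in WT. The WT libraries were close to each other and the Hspa9 cKO libraries ran from below to above them. The downstream share was 35.1% ± 30.0 in Hspa9 cKO and 47.2% ± 6.64 in WT (adjusted p = 0.845), and its difference changed sign without Hspa9 cKO replicate 3, to a log2 ratio difference of 0.27.

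Runx3, which directs the CD8 lineage, has starts 31621 bases apart. The upstream one (mm10 chromosome 4, 135120652 to 135121163, plus strand) was at 0, 0 and 8.96 FPKM in Hspa9 cKO and at 5.62, 6.23 and 0 FPKM in WT. The downstream one (135152273 to 135153056) was at 3.72, 5.37 and 0.305 FPKM in Hspa9 cKO and at 2.85, 1.96 and 3.97 FPKM in WT. Either start led in some libraries of each group, and the upstream difference changed sign without Hspa9 cKO replicate 1 or 2 (log2 ratio differences 0.19 and 0.32). In Tcf12, which encodes the E protein HEB, the 5′-most start held 81.5% ± 12.9 in Hspa9 cKO and 75.0% ± 21.6 in WT. A middle start of Tcf12 held 43.9% in WT replicate 1 and at most 1.25% in the other 5 libraries, and its difference changed sign to 0.64 without that library.

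Tcf7, which encodes TCF-1, had overlapping shares and a lower summed level. Its upstream start (mm10 chromosome 11, 52282928 to 52283550, minus strand) was at 256, 205 and 221 FPKM in Hspa9 cKO, against 386, 350.0 and 327 FPKM in WT. The start 979 bases downstream was at 59.98, 59.6 and 41.5 FPKM in Hspa9 cKO and at 209, 64.5 and 113 FPKM in WT. The upstream share was 80.9% ± 3.36 in Hspa9 cKO and 74.6% ± 9.78 in WT, with overlapping groups (adjusted p = 0.870). The summed level fell by 0.77 on the log2 scale (SE 0.16; limma, adjusted p = 0.0290), which was held without WT replicate 1 or 2 and not in the other cases (up to 0.0929).

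Lef1 encodes the partner of TCF-1 in thymocyte development. The windows shown above as Lef1 upstream and Lef1 downstream are those of the nearest RefSeq starts. The upstream start lies 148 bases from its RefSeq start and outside its window. This upstream start of Lef1 (mm10 chromosome 3, 131110471 to 131111678, plus strand) was at 41.7, 40.5 and 39.1 FPKM in Hspa9 cKO and at 31.0, 41.4 and 34.3 FPKM in WT. The start 2326 bases downstream (131112797 to 131112820) was at 1.99, 2.63 and 1.78 FPKM in Hspa9 cKO, against 10.1, 3.70 and 10.6 FPKM in WT. The downstream groups did not overlap, with shares of 4.79% ± 0.584 in Hspa9 cKO and 17.8% ± 8.40 in WT, and neither share nor level was called (adjusted p = 0.715 and 0.102).

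In Ikzf1, which encodes Ikaros, the 5′-most start (mm10 chromosome 11, 11685003 to 11685197, plus strand) was at 0.122, 0.131 and 0.126 FPKM in Hspa9 cKO, against 4.82, 5.43 and 3.56 FPKM in WT. Its share was 0.206% ± 0.0401 in Hspa9 cKO and 7.43% ± 1.74 in WT (adjusted p = 0.134), and the level of this start, a member only through WT, differed by -2.30 on the log2 scale (SE 0.19; limma, adjusted p = 0.00585, and 0.0162 to 0.0375 with each library left out). A first exon with the same 5′ end that stops at 11685174, under the threshold of 2 FPKM, was at 0.126, 0.131 and 3.10 FPKM in Hspa9 cKO and at 3.56, 0.143 and 4.82 FPKM in WT, with groups that overlap. The principal start, 922 bases downstream, was at 54.5, 33.8 and 29.9 FPKM in Hspa9 cKO and at 31.4, 29.7 and 28.4 FPKM in WT. At Notch1, the receptor that T cell precursors depend on, 3 of the 5 starts lay on the opposite strand. The principal start of Notch1 was at 158, 172 and 80.3 FPKM in Hspa9 cKO, against 136, 146 and 139 FPKM in WT, and its share was not called (adjusted p = 0.768). The other annotated start of Notch1, 13681 bases upstream of it, was at 21.7, 0 and 87.3 FPKM in Hspa9 cKO and at 15.9, 0 and 0 FPKM in WT, so the library with the lowest value of one had the highest of the other.

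**Figure D4:**
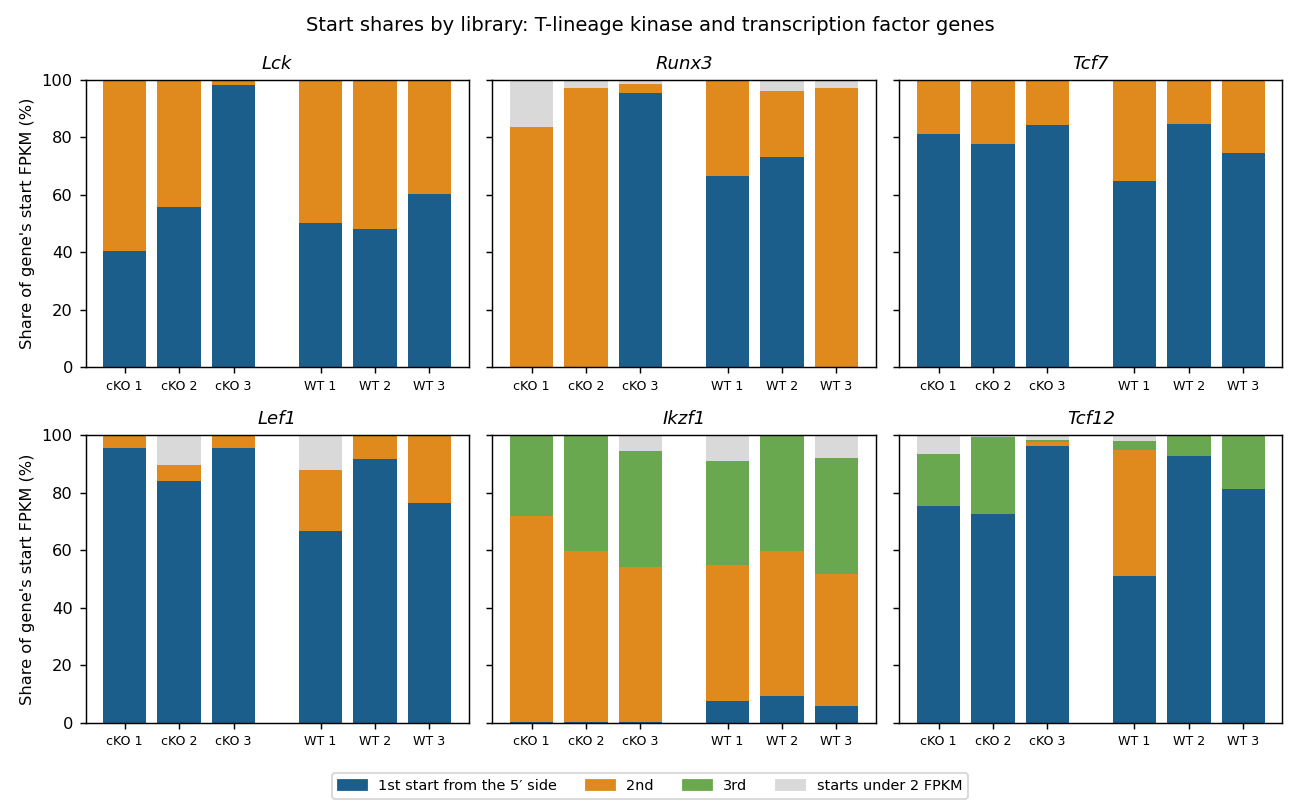
Share of each start in its gene's start FPKM (y axis, percent) in each library (x axis, Hspa9 cKO replicates 1 to 3, then WT replicates 1 to 3) for Lck, Runx3, Tcf7, Lef1, Ikzf1 and Tcf12, with colours from the 5′-most start (blue) to the third (green) and grey for starts under 2 FPKM. Lck in Hspa9 cKO and Runx3 in both groups vary between libraries by more than the groups differ, while the 5′-most start of Ikzf1 is at 5.74% to 9.22% in WT and at 0.160% to 0.230% in Hspa9 cKO.

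Levels of single starts and of whole genes were tested too. Of 3872 of the 4103 starts that reached 1 FPKM in 3 or more libraries, 182 were called (4.70%; limma on log2(FPKM + 1)), 100 higher and 82 lower in Hspa9 cKO, beside 6.27% of all 12254 starts tested. After rescaling the libraries by median ratios 84 were higher and 102 lower, so neither direction prevails under both scalings. Their median log2 difference was 0.04, against 0.06 over all starts tested. The summed level was called for 243 of 1723 genes (14.1%), 160 higher and 83 lower, or 127 and 113 after rescaling, beside 14% of all 9104 genes tested. In bulk samples fewer cells of a type and less RNA per cell cannot be told apart. Of 23 genes with 2 or more starts called for level, 17 had all of them in 1 direction.

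In the other 6 genes 1 start was called higher and another lower: Elf4, Eif4a2, Wnk1, Mrpl36, Pym1 and Tbc1d31. In each of these except Pym1, a called start was at 2 FPKM or more in the mean of 1 group alone. Such a start was kept only through that group, so its level difference was built into the choice. Mrpl36, a protein of the mitochondrial ribosome, has starts 38 bases apart (mm10 chromosome 13, plus strand). Its main first exon (73330988 to 73331091) was at 27.0, 29.1 and 30.5 FPKM in Hspa9 cKO, against 46.5, 41.2 and 51.5 FPKM in WT. The other (73331026 to 73331093) was at 10.6, 10.1 and 10.2 FPKM in Hspa9 cKO, against 1.28, 1.12 and 1.51 FPKM in WT, and its level, at 2 FPKM or more in Hspa9 cKO alone, differed by 2.30 (SE 0.12, adjusted p = 0.00163, and 0.00941 to 0.0177 with each library left out). The fall of the main one, by 0.66 (SE 0.10, adjusted p = 0.0260), held without WT replicate 2 and was lost without any other library (up to 0.0918) and without the filter.

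Pym1, which recycles the exon junction complex, has starts 566 bases apart (mm10 chromosome 10, plus strand). Its upstream start (128747889 to 128747998) was at 24.0, 28.5 and 25.8 FPKM in Hspa9 cKO, against 14.0, 12.7 and 17.3 FPKM in WT. Its downstream start (128748455 to 128748566) was at 4.16, 4.67 and 4.19 FPKM in Hspa9 cKO, against 9.43, 8.37 and 8.81 FPKM in WT. The groups lay apart at both, with level differences of 0.80 (SE 0.13, adjusted p = 0.0325) and -0.89 (SE 0.10, adjusted p = 0.0128). The first call was held without WT replicate 3 and lost without any other library (up to 0.111) and without the filter, and the second was lost on leaving out WT replicate 1, or replicate 1 or 3 of Hspa9 cKO (up to 0.0605). At Tbc1d31, a start that matches no annotated first exon was at 5.73, 5.17 and 4.88 FPKM in Hspa9 cKO and at 0, 0.880 and 0 FPKM in WT, a member only through Hspa9 cKO. Its level call held without WT replicate 2 and was lost without any other library (up to 0.0721). The opposite call of the principal start was lost without any 1 library (up to 0.112).

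Some starts of other genes were listed in 1 group only. Ikbke, a kinase that activates interferon regulatory factors, had a start 2655 bases inside the gene (mm10 chromosome 1, 131276894 to 131276951, minus strand) at 6.71, 8.10 and 7.77 FPKM in Hspa9 cKO and at 0 in WT, while its principal start was at 15.3, 14.1 and 10.7 FPKM in Hspa9 cKO and at 12.8, 13.5 and 13.4 FPKM in WT. An inner start of the splicing factor Srsf3 (mm10 chromosome 17, 29039694 to 29039909, plus strand), of transcripts annotated as nonsense-mediated decay or processed, was at 0 in Hspa9 cKO and at 10.3, 10.7 and 14.7 FPKM in WT. An upstream start of Myo1g, a myosin of blood cells, matches no annotated first exon and was at 0 in Hspa9 cKO and at 8.83, 6.85 and 7.75 FPKM in WT. These were picked for being listed in 1 group, so their level calls restate that choice, and the 0 can be a failed estimate. The share was not called in any of the 3 (limma, adjusted p = 0.0583).

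The gene lists gave no call of a share. The genes known for alternative promoters in lymphocytes had 14 of 47 among the genes kept, with separate groups for 5 of 36 starts (13.9%). Splicing and RNA-binding factors had 18 of 33, with 9 of 55 starts (16.4%). The transcription initiation machinery had 13 of 47, with 2 of 30 starts (6.67%). The interferon response had 9 of 45 and 4 of 22 starts (18.2%), the cell cycle 8 of 47 and 3 of 18 (16.7%), mitochondrial import, chaperones and respiration 6 of 43 and 2 of 14 (14.3%), and the integrated stress response 5 of 41 and 4 of 10 (40.0%). The share over all starts tested was 13.7%, and each list holds few starts. Those of the stress response are both starts of Slc1a5 and both of Shmt2, whose shares mirror each other within the gene. Their adjusted p lay between 0.726 and 0.737 (limma).

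Summed levels of several lists had calls. The lists were chosen with earlier results of these data known, so the counts describe them and are no independent test. Over all genes there were 1274 calls, 241 with the replicate block and 496 to 825 with 1 library left out. Of the genes kept, 3 of 5 in the integrated stress response and 5 of 9 in the interferon response were called higher and none lower, and 5 of 8 in the cell cycle were called lower and none higher, beside 14% of all genes tested, 764 higher and 510 lower. Over the full lists 19 of 29 tested genes of the stress response and 28 of 40 of the interferon response were called higher, and 29 of 45 of the cell cycle lower. The 6 markers of DN4 and double-positive thymocytes summed to 23.1 to 24.3 FPKM in Hspa9 cKO and to 29.4 to 33.7 FPKM in WT, and their part in these calls was not tested. Over all tested genes of each list the median log2 difference was 0.69 for the stress response, 0.93 for the interferon response and -0.75 for the cell cycle, against 0.06 over all genes tested. Hspd1, the partner chaperone of the mitochondrial matrix, fell at its principal start (mm10 chromosome 1, 55087779 to 55088024, minus strand), with 137, 123 and 127 FPKM in Hspa9 cKO, against 206, 209 and 204 FPKM in WT (log2 difference -0.68, SE 0.06; limma, adjusted p = 0.00650). Its share there was 93.7%, 95.0% and 96.4% in Hspa9 cKO and 93.2%, 93.0% and 92.8% in WT. Irf9, a factor of interferon signalling, rose at its own start to 28.1, 21.5 and 25.4 FPKM in Hspa9 cKO, against 10.2, 10.9 and 11.0 FPKM in WT (log2 difference 1.15, SE 0.11, limma, adjusted p = 0.00826). Its other start in the tables is the first exon of a different annotated gene. The start-level calls of Hspd1 and Irf9 held with each library left out (limma, adjusted p up to 0.0434 and 0.0478). Both were lost with the replicate block (0.0944 and 0.103), as was every other start-level call.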

How the data were processed

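Sorted DN3 thymocytes of Hspa9 cKO and WT mice were sequenced, 3 libraries per genotype; titles gave group and replicate. Libraries were randomly primed after poly(A) selection or ribosomal RNA removal, per the labels' protocols. Cutadapt 1.9.1 and build mm10 are named, per the submitters' processing notes; no aligner or assembler is. The authors deposited an FPKM for every start and other event, per the file headers, and no counts, so depth is unknown and no counting interval can be given. The tables listed 21298, 21523 and 21399 starts in Hspa9 cKO replicates 1 to 3 and 20910, 20758 and 20419 in WT, with summed FPKM of 248014 to 272918.

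From these, starts unlisted in a library were set to 0, placed on GENCODE M21 genes by the inner edge of the first exon, and tested with limma 3.58.1 (R 4.3.3; trended, robust variances, two-sided, Benjamini-Hochberg over the whole table, threshold 0.05). Shares were tested as log2((start + 1)/(rest of the gene + 1)), levels as log2(FPKM + 1), which understates the change of low starts. The fits were also run on simulated data in which each start varied independently, so reads divided among starts of 1 gene were not modelled. In 728 of 729 RefSeq promoters that share a start base with an annotated transcript, the 20 bases after it were the same. Alternatives were another pseudocount, filters, denominators and scalings, a replicate block and each library left out. The starts, the gene lists and the rule for named genes (called genes, else the 15 largest differences with separate groups and 1 annotated gene, plus 11 lymphocyte genes) were chosen with earlier results of these data known; Mrpl36, Pym1, Tbc1d31, Ikbke, Srsf3, Myo1g, Hspd1 and Irf9 were named after their values were seen. Some of the 15 genes are not reported here.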

Additional observations from a re-analysis of the deposited data

How the results depend on the processing

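Of the 4103 starts, 3 had a share called. The count was 16 with a pseudocount of 0.1 FPKM, 12 with no filter, 14 with a filter of 5 FPKM, 7 against starts at 2 FPKM or more alone, 12 in genes whose starts match 1 annotated gene, 7 with 1 start per gene and 11 without a variance trend. It was 0 on shares in percent, 0 among starts at 2 FPKM or more in each group and 0 with a replicate block, and lay between 0 and 6 with 1 library left out. Over 9 of these alternatives 22 starts of 15 genes were called at least once. The same replicate numbers gave no pairing: deviations of same-numbered libraries correlated at 0.0108, 0.0356 and 0.000186. Start levels over all starts tested gave 768 calls, 682 with a pseudocount of 0.1, 403 with no filter, 798 after rescaling by median ratios, 0 with the replicate block and 198 to 375 with 1 library left out. Summed levels gave 1274, 1194, 1156, 1250, 241 with the replicate block and 496 to 825. Before rescaling 409 starts were higher and 359 lower, after it 348 and 450; for genes 764 and 510, after it 606 and 644. Of 24 starts followed through 329 alternative values, 21 kept their direction throughout. With each library left out, log2 ratio differences ran at Lck from -2.87 to 0.272 (without Hspa9 cKO replicate 3), at Tcf12 from -2.68 to 0.640 (without WT replicate 1), and at Runx3 from -2.43 to 0.322 (without Hspa9 cKO replicate 2; 0.192 without replicate 1). Why the counts differ was not tested. Depth is unknown, so a start unlisted in a library and set to 0 may be below detection.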
